A study of Mus musculus with 67 samples.

Results

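Chromatin accessibility was examined at 827 elements that were already more open in p3 neural progenitors (NPs) than in the other ventral NPs at day 4 of differentiation. They were chosen from 111638 elements with values, of which they make 0.741%, by mean accessibility per day and cell type with SAG concentrations pooled. Accessibility is given as VST, a variance-stabilized log2-like value on which 7, 8 and 9 stand for normalized counts of 115, 243 and 499. A member had a p3 mean at least 1 above each of p0-1, p2 and pMN at day 4, at least 1.5 above each at day 6, and at least 7 at day 6. The day 4 and day 6 values of the NPs therefore chose the members and are described without a test. Day 5 and the day 3 cells were not used to choose members and were tested. Day 5 lies between the 2 days of the rule, however, and its samples carry the same replicate numbers. A p3 excess at day 5 is therefore favoured by the choice of members and is not an independent check. The fits of SAG concentration also hold the day 4 and day 6 samples, which chose members with SAG pooled. A further 2152 elements met the day 6 part of the rule but not the day 4 part and serve as later p3 elements for comparison.

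The data are 67 CaTS-ATAC samples of HM1 mouse embryonic stem cells, an established line, differentiated towards spinal cord. Cells were fixed, transposed with Tn5, stained with intracellular antibodies and sorted, so each sample is a bulk of sorted cells. NMPs (neuromesodermal progenitors, 3 samples) were taken at day 3 before any SAG, and NPs from day 3 onwards received retinoic acid with or without SAG, a smoothened agonist that activates the Hedgehog pathway. The p0-1 NPs came from 0 and 10 nM SAG (6, 6 and 5 samples at days 4, 5 and 6), p2 from 10 and 100 nM (6 at each day), pMN from 100 and 500 nM (6, 5 and 4) and p3 from 100 and 500 nM (5, 5 and 4). The 2 most ventral types therefore shared their SAG concentrations, and p2 shared only 100 nM with them. The p0-1 NPs shared none with p3 or pMN, so cell type and SAG cannot be told apart in those comparisons. All samples come from 1 cell line, and the replicates are independent differentiations. A lower count in a sorted bulk can come from fewer cells with an element open or from less transposition per cell, and these cannot be told apart.

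As background, Sonic hedgehog (Shh) secreted from the notochord and floor plate patterns the ventral neural tube, and higher or longer signalling gives more ventral progenitors. The p3 domain lies next to the floor plate and gives V3 interneurons, pMN gives motor neurons, and p2 and p0-1 give more dorsal interneurons. Distal elements such as enhancers become accessible when transcription factors displace nucleosomes, and FOXA proteins, forkhead factors that can bind nucleosomal DNA, are known in floor plate and endoderm.

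Reads in elements ranged from 9298160 to 29985325 per sample with a median of 20254011, and the p3 samples of day 4 from 9298160 to 23973955. The label p3 was checked with counts at the TSS elements of marker genes, of which 3 of 5 p3 genes had one. At day 5 their summed count was 5413 to 6347 in p3, 4114 to 4907 in pMN, 3114 to 3820 in p2 and 1882 to 2667 in p0-1, so p3 did not overlap the other types. At day 4 the sums overlapped, with 4645 to 5708 in p3 and 4055 to 5533 in pMN. By gene at day 5, Nkx2-9 was at 2234.5 to 2474.5 in p3 and 1576 to 2173 in pMN. Foxa2 was at 1078 to 1639 and 291 to 520, but Nkx6-1 overlapped, at 2100 to 2264 and 2214 to 2302. At day 6 Nkx2-9 also overlapped, at 1619 to 2137 in p3 and 1786 to 2305 in pMN. The NMP sums of 3957 to 4745 overlapped those of pMN at day 5. The sums therefore do not establish the label alone. Some libraries stood apart over the members. The p2 sample at 100 nM SAG, replicate 3, had a median over the members of 5.94 at day 5, against 4.94 to 5.22 in the other p2 samples, and 6.64 at day 6, against 4.65 to 5.51. The 2 shallowest p3 samples of day 4, replicates 1 and 2 at 100 nM, had medians of 6.23 and 6.34, against 7.09 to 7.28 in the other 3.

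The sequences below are the central 300 bases of 4 members, from the RefSeq GRCm38.p6 plus strand (mm10 coordinates), with forkhead (FOX) letters TGTTTAC or TGTTTGC in capitals on either strand. They are shown because these letters were more frequent in members than in other elements. Each of the 4 has 2 or more matches, which held for 11.1% of members, and 42.3% had at least 1, so they are not typical members. The element in an intron of Kcnq1, a potassium channel gene, with 4933417O13Rik as annotated nearest gene (chr7:143333122-143333421), had the largest day 4 difference of all members. The elements upstream of Foxa2 (chr2:148091800-148092099) and downstream of Foxa1 (chr12:57496395-57496694) lie by genes for forkhead factors themselves, and that upstream of Hhip (chr8:80253547-80253846) by a gene for a Hedgehog-binding inhibitor of the pathway.
Kcnq1 intron: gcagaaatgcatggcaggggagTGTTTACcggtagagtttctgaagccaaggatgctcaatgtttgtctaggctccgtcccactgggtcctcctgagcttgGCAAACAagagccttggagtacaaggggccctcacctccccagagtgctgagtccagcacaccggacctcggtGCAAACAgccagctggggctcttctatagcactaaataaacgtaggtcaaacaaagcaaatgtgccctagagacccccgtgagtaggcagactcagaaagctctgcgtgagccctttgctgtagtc
Foxa2 upstream: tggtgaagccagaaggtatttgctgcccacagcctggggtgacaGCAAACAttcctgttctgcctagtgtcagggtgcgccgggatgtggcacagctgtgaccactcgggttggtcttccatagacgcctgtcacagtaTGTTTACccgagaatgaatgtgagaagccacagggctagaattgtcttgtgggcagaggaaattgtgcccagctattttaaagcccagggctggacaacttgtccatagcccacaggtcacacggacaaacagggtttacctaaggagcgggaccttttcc
Foxa1 downstream: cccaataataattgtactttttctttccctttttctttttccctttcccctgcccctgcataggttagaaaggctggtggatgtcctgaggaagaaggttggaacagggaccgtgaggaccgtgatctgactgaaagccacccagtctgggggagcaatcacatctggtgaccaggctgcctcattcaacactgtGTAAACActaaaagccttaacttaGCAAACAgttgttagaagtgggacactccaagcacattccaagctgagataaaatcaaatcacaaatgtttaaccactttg
Hhip upstream: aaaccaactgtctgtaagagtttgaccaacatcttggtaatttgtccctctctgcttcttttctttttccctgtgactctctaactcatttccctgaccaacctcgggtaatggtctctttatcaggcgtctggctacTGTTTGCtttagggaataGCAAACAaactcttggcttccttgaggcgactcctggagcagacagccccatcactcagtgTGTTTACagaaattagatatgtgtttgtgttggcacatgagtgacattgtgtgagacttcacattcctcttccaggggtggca

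TGTTTAC was found in the central 300 bases of 171 of 827 members (20.7%), against 11.7% of later p3 elements and 4.95% of all elements. TGTTTGC was found in 231 members (27.9%), against 16.8% and 7.30%. At least 1 of the 2 forms was present in 350 members (42.3%), 26.6% of later p3 elements and 11.8% of all elements, and 2 or more matches in 11.1%, 3.90% and 1.03%. Both forms were thus most frequent in members, with later p3 elements between members and all elements. As a comparison of composition, the same letters in reversed order, CATTTGT, were in 9.43% of members, 8.88% of later p3 elements and 6.91% of all elements. Median GC content was 45.7% in members, 45.7% in later p3 elements and 48.0% in all elements. Within the middle range of the members' GC content, TGTTTAC was in 21.3% of members, 12.5% of later p3 elements and 5.90% of all elements. A match describes letters in the window and is not a binding site, and elements are not independent samples, so these shares carry no test.

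**Figure D1:**
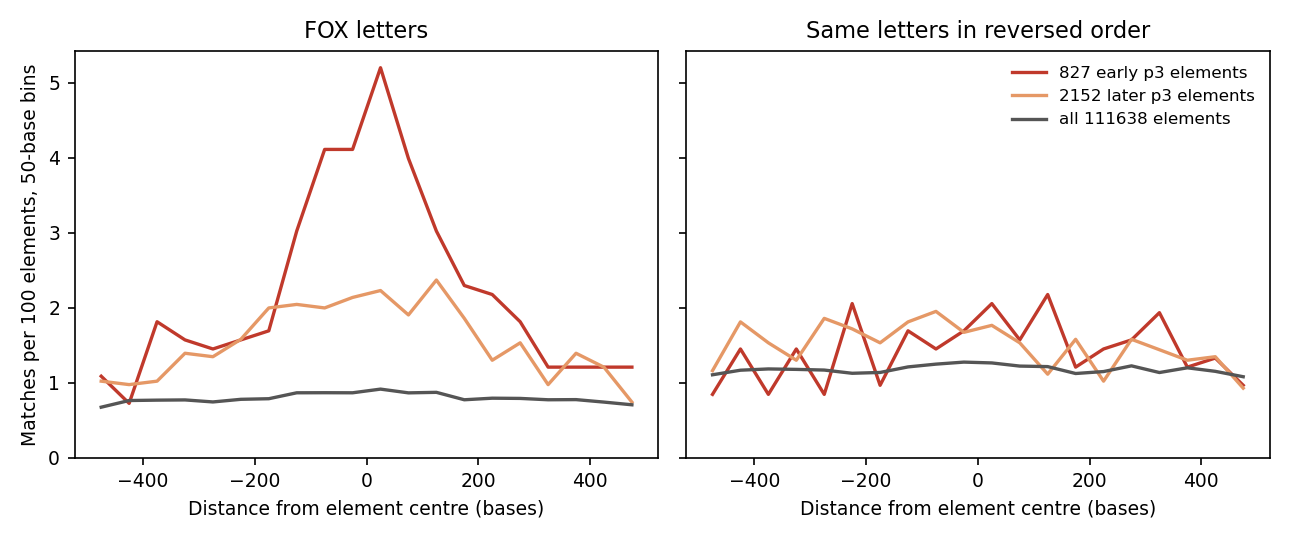
Matches per 100 elements to TGTTTAC (left) and to the same letters reversed, CATTTGT (right), in bins of 50 bases by distance from the element centre, counted on both strands. Red lines show the 827 members, light lines the 2152 later p3 elements and dark lines all 111638 elements. The members reach 5.20 matches per 100 elements in the bin of 0 to 50 bases on the left, with no such peak on the right.

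The matches to TGTTTAC lay near the middle of the members. In the plot of matches by position, members had 5.20 per 100 elements in the bin just past the centre and 0.726 to 1.81 beyond 300 bases. Later p3 elements did not exceed 2.37 and all elements ranged from 0.675 to 0.916 in any bin. Among members with 0, 1 and 2 or more matches to TGTTTAC, numbering 656, 157 and 14, the median day 5 difference between p3 and the highest other type was 2.08, 2.26 and 2.24 VST. So the letters marked many members, but members without TGTTTAC, some of which carry TGTTTGC, had day 5 differences of similar size. Among members and later p3 elements together, members made 25.66%, 40.05% and 46.67% of those with 0, 1 and 2 or more matches.

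Letters of other factors differed by fewer percentage points between members and later p3 elements. The GLI letters GACCACCCA, for the transcription factors of the Hedgehog pathway, were in 2 members (0.242%), 0.139% of later p3 elements and 0.393% of all elements. The NK2 letters CACTTNA were in 17.8%, 16.2% and 15.0%, the SOX letters ACAATG in 24.5%, 23.2% and 21.1%, and the E-box CAGCTG in 22.2%, 21.8% and 21.1%. The homeodomain letters TAATTA were in 6.53% of members but 11.2% of later p3 elements and 7.84% of all elements. The RFX letters GTTGCC were in 14.1% of members, 19.2% of later p3 elements and 11.8% of all elements, and the NFI half-site TTGGCA in 17.5%, 18.1% and 14.9%. TAATTA and GTTGCC were thus less frequent in members than in later p3 elements.

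Members were mostly distal. By the HOMER annotation, 407 (49.2%) were in introns, 388 (46.9%) were intergenic, 19 were exonic and 9 (1.09%) were at a promoter, against 7.41% of all elements at a promoter. The median distance to the nearest TSS was 49657 bp, against 32610.5 bp for all elements and 49426 bp for later p3 elements, and the median width was 906 bp against 883 bp and 962 bp. The members had 760 annotated nearest genes, and 702 of these genes had a single member. Chromosome 1 held the most members, 68, and 24 members lay within 20000 bases of another. In distance to the TSS, members were thus close to later p3 elements.

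In NMPs the members were mostly at low accessibility. The sample medians over the members were 4.24, 4.27 and 4.37, and the mean over NMP samples was under 5 for 655 members (79.2%) and at least 7 for 14. At day 4 the medians were 6.23, 6.34, 7.09, 7.10 and 7.28 in p3. They were 5.13 to 5.73 in pMN (median 5.25), 4.93 to 5.43 in p2 (median 5.15) and 4.67 to 4.97 in p0-1 (median 4.87). The p3 samples were above every other day 4 sample, as the rule favours. At day 5 the p3 medians were 7.62, 7.17 and 7.68 at 100 nM and 7.13 and 8.04 at 500 nM SAG, against 5.00 to 5.48 in pMN, 4.94 to 5.94 in p2 and 4.83 to 5.10 in p0-1. At day 6 they were 7.67 and 8.24 at 100 nM and 7.68 and 8.63 at 500 nM, against 4.63 to 5.60 in pMN, 4.65 to 6.64 in p2 and 4.46 to 4.88 in p0-1. Thus p3 medians were highest at day 6, and those of the other types stayed at 4.46 to 6.64 on every day. The members took 0.0681 to 0.0830% of the reads in NMPs and 0.433 to 0.897%, 0.777 to 1.40% and 1.10 to 1.93% in p3 at days 4, 5 and 6.

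**Figure D2:**
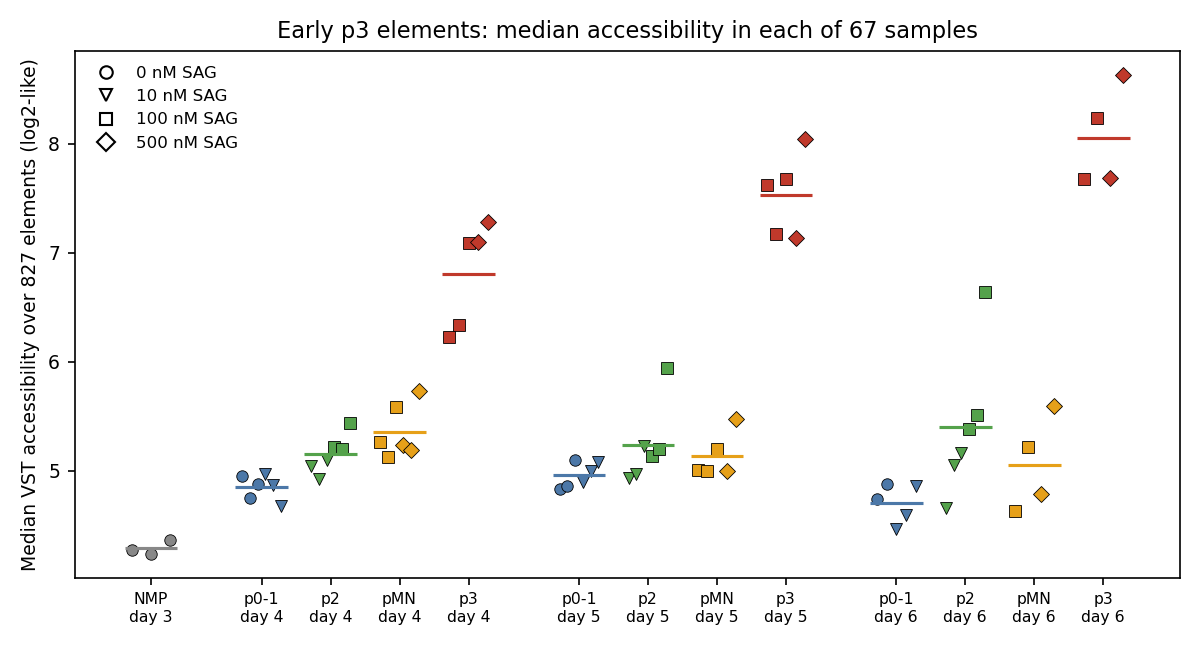
Median VST accessibility over the 827 members (y axis) in each of the 67 samples, by cell type and day (x axis). Each point is a sample, its shape gives the SAG concentration, and lines are means of the points. The p3 samples lie at 6.23 to 8.63, above the other samples of their day, and the highest p2 point at days 5 and 6 is replicate 3 at 100 nM.

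The p3 level at day 4 was below that of day 6 for most members. Over members, the mean normalized count of p3 at day 4 was a median of 38.7% of that at day 6, and at day 5 it was 65.3%. For later p3 elements these were 24.3% and 60.0%. At day 4, 357 members (43.2%) had a p3 mean of at least 7 VST and 12 were under 5, so open at day 4 means more open than in the other NPs and not a high level for every member. The p3 means were higher at each later day for 643 members (77.8%) and 85.7% of later p3 elements. For 117 members (14.1%) day 5 was below day 4, against 6.74% of later p3 elements, and for 55 members day 6 was below day 4. These day means are compared without a test, since days 4 and 6 entered the rule.

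The difference between p3 and the highest of the other types had a median of 1.31 at day 4 (1.00 to 3.37), 2.13 at day 5 (0.78 to 4.12) and 2.61 at day 6 (1.51 to 4.23). At day 5, 820 members had a difference of at least 1 and all 827 were above 0, against 5.71% of all elements at 1 or more. The highest of the other types at day 4 was pMN for 595 members (71.9%), against 52.0% of later p3 elements and 36.4% of all elements. At day 5 it was p2 for 364, pMN for 281 and p0-1 for 182, but without the p2 sample that stood apart, an alternative added after seeing the data, it was pMN for 394, p0-1 for 237 and p2 for 196. At day 6 it was p2 for 597 (72.2%), against 44.0% of later p3 elements and 23.1% of all elements. Without that sample it was p2 for 434 members (52.5%), against 25.2% and 24.6%. Also without it, the median difference between p3 and p2 was 2.39 in place of 2.26 at day 5 and 2.92 in place of 2.68 at day 6. Without the 2 shallowest p3 samples of day 4, the median day 4 difference was 1.66, and 826 of the members were at 1 or more.

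At day 5, which the rule did not use, nearly all members were more accessible in p3 than in each other type. By limma with Benjamini-Hochberg adjustment over all 111638 elements, and with calls at adjusted p below 0.01 and more than a 2-fold change of mean normalized counts, 826 of 827 were higher than in pMN, 826 than in p2 and 823 than in p0-1, and 822 than in all 3. The share of all elements called higher was 11.9% against pMN, 11.8% against p2, 13.2% against p0-1 and 8.08% against all 3. The median differences over members were 2.33 VST (0.96 to 4.87, median SE 0.20) against pMN, 2.26 (1.10 to 4.20, median SE 0.22) against p2 and 2.47 (0.78 to 4.68, median SE 0.20) against p0-1. Medians over all elements were 0.03, 0.03 and 0.00. Within each replicate number of day 5 the median difference was between 2.02 and 2.71 for each other type, with all 827 members above 0. The 3 comparisons share their p3 samples, and cells of 1 differentiation contributed to several types. Because day 5 lies between the days of the rule, high shares among members were favoured by their choice.

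In 800 members (96.7%) every p3 sample of day 5 was above every sample of the other 3 types, against 8.87% of all elements and 82.3% of later p3 elements. At day 4 this held for 572 members (69.2%), with 10.3% of later p3 elements and 2.41% of all elements. At day 6 it held for 769 members (93.0%), with 92.2% of later p3 elements and 11.4% of all elements. The rule favours it in members on both days, and later p3 elements met the same day 6 part. With p3 and pMN compared at 100 nM SAG alone, 826 members were called, against 10.8% of all elements, and at 500 nM alone, with 2 samples in each group, 610, against 2.78%. With p3 and p2 compared at 100 nM alone, 818 were called, against 8.7%.

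**Figure D3:**
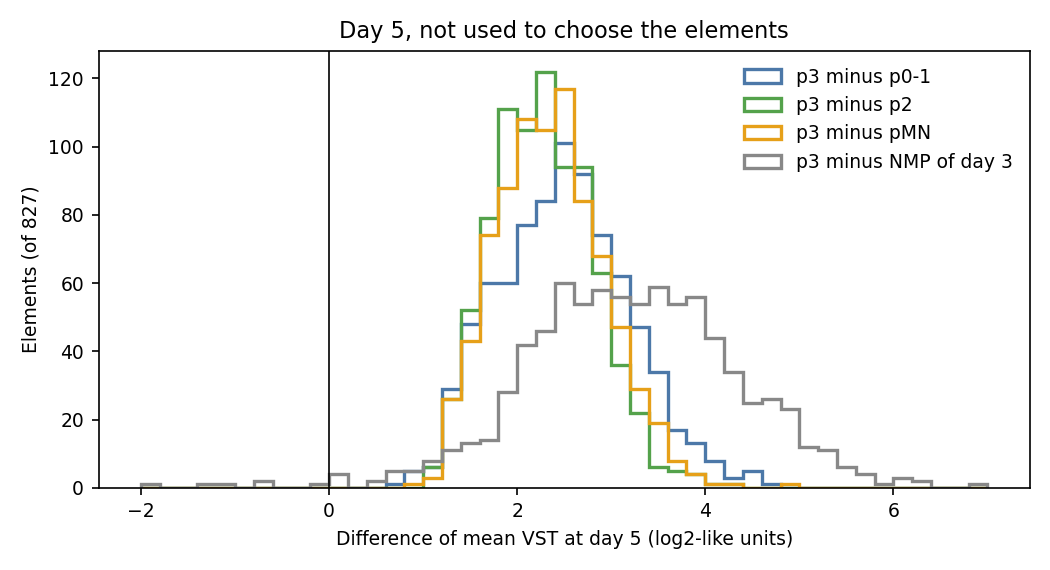
Number of members (y axis, of 827) by difference of mean VST at day 5 (x axis, bins of 0.2) between p3 and p0-1, p2 and pMN of day 5 and NMPs of day 3. The 3 differences from NPs all lie above 0.77, and 6 members lie at or below 0 in the difference from NMPs.

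Compared with NMPs of day 3, 809 members were higher in p3 at day 5 and 3 were lower, with a median difference of 3.20 VST (-1.83 to 6.94) against 0.13 over all elements. The shares of all elements called were 36.5% higher and 25.7% lower. The rule asked for at least 7 VST in p3 at day 6, which 26.75% of all elements reached, so it favours p3 above NMPs. Later p3 elements, chosen with the same level, were also low in NMPs, with a median of 4.34 against 4.22 in members. Calls among them are not given. In pMN at day 5, 440 members were also higher than in NMPs and 43 were lower, with a median difference of 0.80, against 40.3% and 26.6% of all elements and a median of 0.21. Between pMN and p0-1 at day 5, which share no SAG concentration, 82 members were higher in pMN and 24 were lower (median 0.11). The shares over all elements were 12% and 6.52%. Members were thus higher than in NMPs almost throughout in p3, which the rule favours, and for 440 of 827 in pMN. The 82 and 24 that differed between pMN and p0-1 were close to or below the shares over all elements. With elements limited to a mean above 100 normalized counts, the share higher in pMN was instead above that over all elements. No difference of members from all elements is therefore read from the 82. Leaving out 1 sample at a time gave 12 to 36 members lower in pMN than in p0-1, with 12 to 15 without p0-1 0 nM replicate 3 or pMN 100 nM replicate 2 or 3 or 500 nM replicate 2, and 36 without pMN 500 nM replicate 3.

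Among the members with the largest day 4 differences, which the rule used, 7 are described. In the Kcnq1 intron element the p3 counts at day 4 were 327, 220, 561, 514 and 702, those at day 5 were 202, 120, 229, 139 and 444, and those at day 6 were 289, 756, 396 and 1299. NMPs were at 1.35 to 5.38, and the pMN range was 19.5 to 76.7 at day 4 and 4.53 to 20.7 at day 5. The p3 mean was thus lower at day 5 than at day 4, with overlapping samples, and p3 did not overlap pMN on either day. Its day 5 difference from pMN was 3.45 (SE 0.29, limma adjusted p = 8.385e-08).

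The other 6 were an element in a Sec16b intron (chr1:157512639-157513297), elements near 1110002J07Rik (chr10:66928287-66929066), Frmd4b (chr6:97754419-97755130), Tango6 (chr8:106671950-106673223) and Gm4668 (chr9:116388783-116389531), and an element in an intron of Slit3 whose annotated nearest gene is Mir218-2 (chr11:35400988-35401808). Slit3 encodes a secreted axon guidance ligand. In the Slit3 intron element p3 counts at day 5 were 307, 205, 283, 260 and 419, with pMN at 13.3 to 25.3, p2 at 9.04 to 49.8 and p0-1 at 6.34 to 12.2, which do not overlap p3. All 7 were called higher in p3 than in each other type at day 5, with differences from pMN of 3.35 to 4.27. The element near 1110002J07Rik was already at 66.8 to 107 in NMPs and was lower in pMN at day 5 (3.77 to 14.4), at a difference of -2.36 (SE 0.23, limma adjusted p = 6.472e-08). In p3 it was instead higher than in NMPs, at 183 to 353 and a difference of 1.46 (SE 0.20, limma adjusted p = 5.14e-06).

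Genes of ventral identity and floor plate formed a list of 32 genes with 512 elements, 9 of which were members (1.76%, against 0.741% of all elements) and 30 later p3 elements. All 9 were called above the 3 other types at day 5. Of the 512 elements, 63 (12.3%) were called above all 3 types, against 8.08% of all elements. The 9 lay by 7 genes, Foxa2 (3), Foxa1, Shh, Ferd3l, Spon1, Slit2 and Corin, most of which are known floor plate genes. Olig2, which marks pMN, had 16 elements, 0 of them called above all 3 types, and 0 members. Nkx6-1, a ventral homeodomain gene, had 29 elements with 0 members and 2 later p3 elements, and Nkx2-9, a p3 homeodomain gene, had 7 with 0 members and 1 later p3 element.

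Counts at the TSS element of the floor plate marker gene Foxa2, which is not a member, moved with p3 as well. It had 1078 to 1639 in p3 at day 5, 291 to 520 in pMN, 251 to 529 in p2 and 320 to 435 in p0-1, and 1266 to 1685 in NMPs. It did not overlap between p3 and the other NPs. Of 8 endoderm marker genes, 2 had a TSS element. At Gata4, counts of 476 to 514 in p3 overlapped the 484 to 522 of p0-1. At Foxa1, which the floor plate also expresses, p3 had 666 to 782, with no overlap with 527 to 577 in p0-1, 502 to 524 in p2 and 466 to 542 in pMN, and NMPs had 737 to 877. The part of floor plate or endoderm cells among the sorted p3 cells in the results on members was not tested.

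Foxa2, a forkhead factor gene required for the floor plate, had 32 elements, 3 of them members, 6 later p3 elements and 14 called above all 3 types at day 5. At the member 44981 bp upstream of the TSS, whose sequence is given above, p3 counts were 50.5, 19, 73.6, 80.0 and 106 at day 4 and 297, 136, 305, 123 and 421 at day 5. At day 6 they were 294, 973, 400 and 1427. NMPs were at 5.40 to 7.54, and at day 5 pMN was at 3.77 to 9.92, p2 at 5.42 to 38.3 and p0-1 at 3.09 to 13.3. No p3 sample of day 5 overlapped another type, and the differences were 3.87 (SE 0.28) from pMN, 3.33 (SE 0.33) from p2 and 3.78 (SE 0.28) from p0-1, with limma adjusted p of 1.951e-08, 7.402e-07 and 1.417e-08. The member 157957 bp downstream (chr2:147888553-147889471) had 490, 298, 422, 304 and 616 in p3 at day 5, and the one 32248 bp upstream (chr2:148078098-148080336) had 689, 260, 628, 223 and 821. Both were above every other NP sample of day 5, which reached 37.6 at the first and 81.3 at the second.

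Foxa1 encodes a related forkhead factor. At its member, 49566 bp downstream of the TSS, p3 counts at day 4 were 58.5, 96.7, 162, 169 and 214, and at day 5 they were 151, 111, 188, 98.3 and 226. The pMN range was 17.1 to 63.9 at day 4, overlapping the lowest p3 sample, and 5.52 to 23.5 at day 5 with no overlap. The day 5 difference from pMN was 2.86 (SE 0.24, limma adjusted p = 1.115e-07). Ferd3l encodes a bHLH factor of the floor plate, and its member was 1 of the 9 at a promoter (chr12:33926966-33929399). There p3 counts at day 5 were 539, 344, 528, 387 and 622, with NMPs at 31.2 to 74.2 and pMN at 15.8 to 51.4. The p3 counts lay well above both, at a difference of 3.52 from pMN (SE 0.20, limma adjusted p = 2.959e-09).

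**Figure D4:**
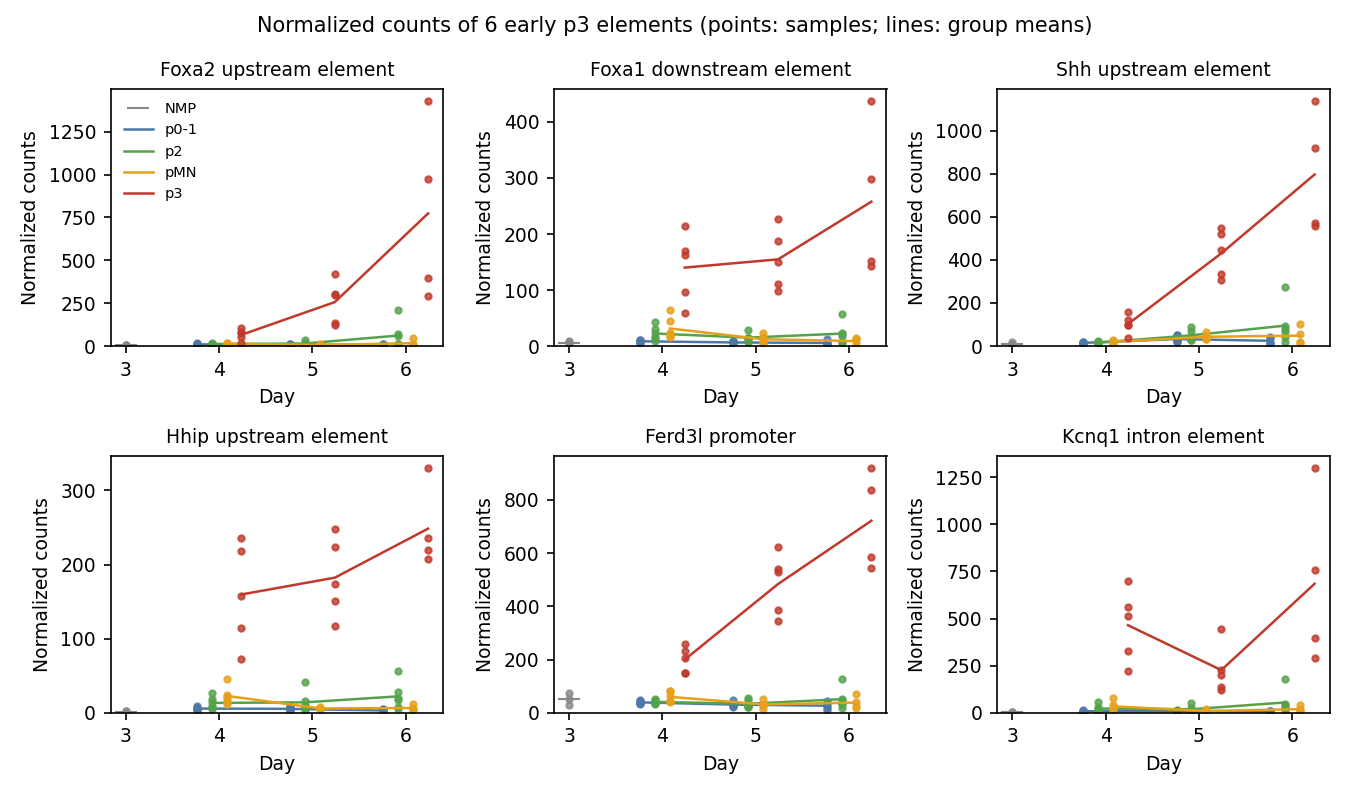
Normalized counts (y axes, linear, each panel on its own scale) by day (x axes) at 6 members, with a point for each sample and lines joining group means by cell type. The p3 samples of days 5 and 6 lie above the other types in each panel, and the Kcnq1 intron element has a lower p3 mean at day 5 than at day 4.

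Shh itself, the ligand, had a member 96519 bp upstream of its TSS (chr5:28563312-28563929). Its p3 counts were 96.9, 36.0, 120, 98.2 and 160 at day 4 and 448, 332, 521, 305 and 546 at day 5. At day 5 pMN was at 32.4 to 64.9, p2 at 28.9 to 86.6 and p0-1 at 19.2 to 52.5, below every p3 sample. The difference from pMN was 2.99 (SE 0.18, limma adjusted p = 5.018e-09). A further member lay in intron 2 of Shh (chr5:28457892-28460386) but has another annotated nearest gene, 9530036O11Rik, and was not counted in the list. It was open before SAG, with 612 to 673 in NMPs, and p3 had 417 to 787 at day 4 and 754 to 1557 at day 5, against 180 to 207 in pMN at day 5. From NMPs to day 5, pMN was thus lower by a difference of -1.68 (SE 0.11, limma adjusted p = 5.151e-10), whereas the p3 difference of 0.75 (SE 0.18, limma adjusted p = 0.00107) did not reach a fold of 2.

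Among guidance and extracellular genes of the list, the member near Spon1, which encodes the secreted F-spondin, lay 77593 bp upstream (chr7:113687886-113688925). It had 860, 428, 762, 457 and 803 in p3 at day 5 and 136 to 178 in pMN, 59.3 to 127 in p2 and 52.6 to 65.3 in p0-1, so the types did not overlap p3. It was also higher in pMN than in NMPs (5.40 to 17.0), at a difference of 3.01 (SE 0.19, limma adjusted p = 2.483e-10). The Slit2 intron member (chr5:47994250-47994827), in a gene for an axon guidance ligand, had low counts of 94.2, 42.0, 92.3, 26.3 and 117 in p3 at day 5, against at most 13.0 in the other types. The Corin intron member (chr5:72411698-72412468), in a gene for a membrane protease, had 266, 177, 275, 154 and 347 in p3 at day 5 against at most 41.4 in the others. Differences from pMN were 2.53 (SE 0.27, limma adjusted p = 1.217e-06) for Slit2 and 3.44 (SE 0.20, limma adjusted p = 3.275e-09) for Corin.

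The Hedgehog pathway list of 16 genes had 171 elements and 2 members, the one upstream of Shh and one by Hhip, and 8 later p3 elements. Of its elements 19 (11.1%) were called above all 3 types at day 5. The receptor gene Ptch1, with 14 elements, the transducer gene Smo, with 3, and the effector gene Gli1, with 1, had 0 members and 0 elements called above all 3 types. Other genes of the list had 0 members but some elements called above all 3 types. These were 3 of 19 for Gli2, 2 of 28 for Gli3, 3 of 15 for Disp1 and 2 of 11 for Cdon. Later p3 elements numbered 2 for Gli2, 1 for Gli3, 2 for Disp1 and 0 for Cdon. At the Hhip member, 195689 bp upstream (chr8:80253440-80253954), p3 counts were 72.7, 114, 158, 236 and 218 at day 4 and 223, 150, 173, 117 and 248 at day 5. At day 5 pMN was at 4.60 to 8.12, p2 at 2.71 to 41.4 and p0-1 at 2.11 to 9.32, and the difference from pMN was 3.53 (SE 0.18, limma adjusted p = 9.873e-10). NMPs were at 0.00 to 2.42. The p3 counts of days 4 and 5 covered a similar range, and the other types were far below p3 at day 5.

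The list of endoderm genes and FOXA partners had 23 genes, 228 elements and 1 member (0.439%), with 18 elements (7.89%) called above all 3 types. The member lay 54247 bp upstream of Rfx3 (chr19:28065099-28065727), a gene for a regulator of ciliary genes. Its p3 counts at day 5 were 109, 84.0, 166, 90.5 and 237, with pMN at 16.6 to 35.5 and 1 p2 sample at 72.1, the highest of the other NPs. The difference from pMN was 1.93 (SE 0.24, limma adjusted p = 5.036e-06). Members by genes of this list were thus no more frequent than over all elements. The 3 lists were chosen with earlier results of these data known.

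The nearest genes with the most members were Xylt1, with 4, and Eya1, Foxa2, Kazn, Nectin3, Ppp3ca, Rarb and Trabd2b, with 3 each. Xylt1 encodes a xylosyltransferase of proteoglycan synthesis, and its members ranged from 283231 bp upstream of the TSS to 48597 bp downstream. The Xylt1 member 257066 bp upstream (chr7:117123535-117124291) had 341, 286, 360, 270 and 459 in p3 at day 5 and 57.9 to 140 in pMN, with NMPs at 3.64 to 7.54, so pMN lay between them. Eya1 encodes a transcriptional cofactor. Its member 11891 bp downstream (chr1:14297707-14298910) had 156, 118, 186, 114 and 184 in p3 at day 5 and 5.52 to 15.1 in pMN. Rarb encodes a retinoic acid receptor, and its 3 members lay in the same intron. At the first of these (chr14:16562903-16563783) p3 counts were 105, 146, 297, 235 and 341 at day 4 and 139, 96.8, 237, 82.7 and 343 at day 5, while pMN was at 34.1 to 152 at day 4, overlapping p3, and 10.1 to 31.1 at day 5. All members of these 8 genes were called above the 3 other types at day 5.

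Some members differed from the rest in NMPs. The highest NMP level was in an intron of Plekhg1 (chr10:3940858-3942539), at 1049, 1083 and 942, where p3 was at 301 to 631 at day 4 and 204 to 464 at day 5. This was 1 of the 3 members lower in p3 at day 5 than in NMPs, at a difference of -1.83 (SE 0.19, limma adjusted p = 3.212e-07), and pMN was lower still, at 80.8 to 138. The other two were near 1700006H21Rik (chr13:107675998-107677285, -1.02) and Efnb2 (chr8:8608754-8610215, -1.29), a gene for an ephrin ligand. At these 3 members p3 of day 5 lay between pMN and NMPs. The member near Apela, which encodes a small peptide hormone (chr8:65046199-65047198), had 436, 513 and 354 in NMPs and 374 to 587 in p3 at day 5, a difference of 0.11 (SE 0.15, limma adjusted p = 0.491) that was -0.15 with samples centered on their median. In pMN it was at 71.7 to 100.3, a difference of -2.16 from NMPs (SE 0.15, limma adjusted p = 1.177e-09).

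At the other end, the members near Gm35135 (chr12:52464439-52465004) and Gap43 (chr16:42599262-42600334), a gene for a growth cone protein, had 0 reads in all 3 NMP samples. Gm35135 had 24.2 to 71.0 in p3 at day 4 and 355 to 558 at day 5, and Gap43 had 13.3 to 33.4 and 118 to 220. The Cylc1 intron member (chrX:111114406-111115173) had 0, 0 and 1.08 in NMPs, 6.06 to 93.7 in p3 at day 4 and 93.0 to 187 at day 5. Their p3 counts at day 4 were mostly below those of day 5, and their day 5 counts in other NPs, at most 106 for Gm35135, 15.3 for Gap43 and 37.6 for Cylc1, were below those of p3. No fold is given against 0.

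The 5 members not called above all 3 types at day 5 are named after their values were seen. They lay near Kcnk2 (chr1:189494445-189495246), in the Plekhg1 intron, in a St3gal6 intron (chr16:58498226-58499388), at the Hpgds promoter (chr6:65144543-65145431) and near Ppp1r3b (chr8:35322954-35323900). All but the St3gal6 element missed the call only against p0-1, with differences of 0.78, 0.91, 0.86 and 0.82 for Kcnk2, Plekhg1, Hpgds and Ppp1r3b, and limma adjusted p of 0.0298, 0.00227, 0.0012 and 0.00176. The St3gal6 element missed it against pMN (1.58, SE 0.53, limma adjusted p = 0.0212) and p2 (1.65, SE 0.52, limma adjusted p = 0.0155). In each of those 2 types 1 sample, with counts of 128 and 132, was within the p3 range of 22.4 to 185. These samples and the highest p3 sample were all replicate 2 at 100 nM.

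The SAG concentration was compared within p3, with days as a term in the limma fit, which pools days 4, 5 and 6. No member and no other element was called between 500 and 100 nM, 0.0% of all elements, where a call needed adjusted p below 0.01 and a VST difference above 1. The same held in pMN (0.0%) and for the difference between p3 and pMN in the effect of SAG (0.0%), so these fits called 0 elements. At an unadjusted p under 0.05, 74 members were higher at 500 nM in p3, 98 in pMN and 2 in the test of the difference, against 2.07%, 1.7% and 1.37% of all elements. With the replicate number as a block, 299, 207 and 18 were, against 3.74%, 3.22% and 2.14%, with 0 called. By voom on recovered reads, 60, 101 and 0 were, against 1.99%, 1.9% and 0.936%, with 0 called. All these fits hold the day 4 and day 6 samples that chose the members. The shares among members can therefore depend on that choice and are not an independent check. At day 5, the day the rule did not use, the p3 difference between 500 and 100 nM had a median of 0.09 over members, with 583 of 827 above 0, against a median of 0.01 over all elements. It was 0.65 at day 4, with 821 above 0, where replicates 1 and 2 at 100 nM were the shallow samples, and 0.16 at day 6, with 678 above 0. Over the 3 days the fitted difference had a median of 0.31 in p3 (median SE 0.22), with 808 members above 0, and of 0.17 in pMN, and day 4 had the largest p3 difference of the 3 days. With replicates 2 and 3 of days 5 and 6 alone the p3 median was 0.15, with 4 members higher and 1 lower at an unadjusted p under 0.05. The shares over all elements are not given for this fit, so no difference of members from all elements is read from these counts. The part of depth in the day 4 difference was not tested.

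The members just inside the day 4 threshold were in a Galnt14 intron (chr17:73684734-73685859) and near Snx16 (chr3:10403231-10404252), with differences of 1.0003 and 1.0015. Just outside were elements in an Epb41l2 intron (chr10:25438901-25439860) and near Skor1 (chr9:63074107-63075852), at 0.9986 and 0.9987. The p3 mean at day 4 was 5.12 and 6.18 VST in the first pair and 7.93 and 8.22 in the second, so the threshold separates elements by difference and not by level.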

How the data were processed

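The deposited values are a log2-scale table in which the authors transformed counts, normalized by size factors, with the variance-stabilizing transformation (VST) of DESeq2. They processed reads with nf-core/atacseq, aligned to mm10, called peaks with MACS2 and retained consensus peaks found in 2 or more replicates. A deposited HOMER annotation of 133549 elements gave coordinates and nearest genes, and its TSS distance and other columns were used as given; 21911 had no values.

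The transformation was inverted to normalized counts and reads, of which 100% of values below 1000 reads were whole within 0.001. Differences of VST were tested two-sided with limma 3.58.1 in R 4.3.3, with a variance trend, only the groups compared in each fit, and Benjamini-Hochberg adjustment over all 111638 elements. A call needed adjusted p below 0.01 and more than a 2-fold change of mean normalized counts, or a VST difference above 1 in the fits of SAG, which had day as a term. Letters were counted on both strands of the central 300 bases in GRCm38.p6. Other steps used Python 3.11.15 with numpy 2.4.6, pandas 2.3.3 and matplotlib 3.10.9. Only the fit of p3 against pMN at day 5 was tested on simulated data. There the samples were drawn independently, without deviations shared by replicate number.

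Named elements were the 8 members with the largest day 4 difference, the members by listed genes, those of the 8 genes with the most members, the 2 on each side of the day 4 threshold, the members of calls numbering 5 or fewer, and the 3 highest and 3 lowest in NMPs. One of the 8 and 1 marker gene are not reported here. The members and lists were chosen with earlier results of these data known. Replicate numbers come from the sample titles. For 15 of 67 samples the description gives another number. At day 5 all 71 pairs of samples with the same title number deviated together from their group means (r above 0.1). Their median r was 0.315, against -0.178 for different numbers, so the numbers pair the samples. At day 4, 70 of 77 such pairs were above 0.1, and at day 6, 55 of 59. The main fits had no replicate term, so their SEs and adjusted p treat samples of 1 number as independent. Alternatives were the replicate block, filters, thresholds, centering, voom and leaving out samples.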

Additional observations from a re-analysis of the deposited data

Results flagged for a closer look

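The median over the members in the day 5 p2 sample at 100 nM SAG, replicate 3, was 5.94 VST, against 4.94 to 5.22 in the other 5 p2 samples of that day. Its gap to the nearest of these was 0.712 of the range of the group, beyond the limit for a group of 6. It was the only one found far from its group among 12 groups tested, and chance gives about 1 such group in 20.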

How the results depend on the processing

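The call against all 3 types at day 5 held for 818 to 825 members when 1 sample at a time was left out, for 822 by voom on recovered reads, and for 822 with the replicate block of the title numbers or 823 with the description numbers. The block changed no other call count by more than 1.5 times, giving 92 members higher and 29 lower in pMN than in p0-1. The shares over all elements are not given for these counts, which show only how the calls among members moved.

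With elements limited to a mean above 100 normalized counts over the samples compared, fewer members were tested. Of 416, 401, 386 and 493 tested, 416, 401, 382 and 481 were then higher in p3 than in pMN, p2, p0-1 and NMPs, and 378 were above all 3 types. Of 49 tested, 37 were higher and 6 lower in pMN than in NMPs, against 27.5% and 27.8% of all elements tested, and of 71 tested, 6 were higher and 2 lower in pMN than in p0-1, against 6.86% and 4.45%. The shares of all elements tested that were higher in p3 were 7.04%, 7.1%, 7.37% and 24.6%, and 4.62% were above all 3 types. At a fold above 4, 0 members were lower in p3 and 11 lower in pMN than in NMPs, and 12 were higher and 1 lower in pMN than in p0-1. With samples centered on their median, 74 were lower in pMN than in NMPs, and the Apela difference from NMPs was -0.15. That difference ranged from -0.02 to 0.24 with 1 sample left out. Leaving out 1 sample gave 12 to 36 members lower in pMN than in p0-1. The shares over all elements are not given for the counts at a fold above 4, with centered samples or with 1 sample left out. No difference of members from all elements is read from those counts.

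The rule found 1241 elements on log2 of normalized counts plus 1, with all 827 shared, and 547 at a day 4 threshold of 1.2. It found 682 to 1048 with 1 sample left out, lowest without p3 500 nM replicate 3 and highest without p3 100 nM replicate 1, both of day 4. Without the p2 sample of day 6 that stood apart and the 2 shallowest p3 samples of day 4, an alternative added after seeing the data, it found 1336, of which 826 were shared. The causes were not tested. Of the named differences, 13 of 61 lost their call at a fold above 4. At SAG, 0 calls under every alternative do not show that SAG has no effect at this depth and number of samples.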
